A study of Mus musculus with 2 samples.

Results

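The 9 genes described here encode the parts of the T-cell receptor machinery that bring a signal from the cell surface to the first adaptor: the signalling chains of the receptor complex (Cd3e, Cd3d, Cd3g and Cd247), the coreceptor Cd4, the kinases Lck and Zap70, the adaptor Lat and the costimulatory receptor Cd28. They were taken by name, as 9 of the 21938 protein-coding genes of the GENCODE M21 annotation, for their role in the receptor pathway and not by a threshold on a measured value. For each gene, GABPα peaks were sought within 1000 bp of any annotated transcript start, within 50 kb, and at the nearest position beyond. GABPα binding was mapped by ChIP-seq in CD4+ T cells that were purified on MACS beads from wild-type C57BL/6 mice, with an antibody against GABPα, and the result is a list of 6782 peak intervals on mm10. There was 1 GABPα ChIP library and 1 input DNA library from the same kind of cells, prepared without antibody, so no value has a replicate and no test between groups was possible. How many mice were pooled and their age are not given in the sources used here. The list carries no read count, height or q value, so the depth is unknown, and an interval below the cutoff of the peak caller would not be in it. No RNA data were analysed here, so the purity of the cells was not checked against marker transcripts.

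GABPα is the DNA-binding subunit of GABP, an ETS-family transcription factor that acts together with GABPβ and recognises a GGAA core preceded by C bases, often at the CpG-rich promoters of genes that nearly every cell uses. In the T-cell receptor complex the antigen-binding chains have no signalling tails of their own. When a peptide is bound, Lck, held by CD4, phosphorylates the tails of the CD3 and ζ chains, Zap70 docks there and phosphorylates LAT, and LAT gathers the enzymes of the following steps, while CD28 gives a second signal.

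None of the 9 genes had a GABPα peak within 1000 bp of any of its transcript starts (0 of 9, Wilson 95% interval 0.0 to 29.9%). Across all protein-coding genes the share with such a peak was 17.7%, which lies inside that interval, so the count of 0 alone does not set these genes apart from the genome. All 45 annotated transcripts of the 9 genes, with 40 distinct starts, were searched. None of the 9 gene bodies overlapped a peak either, which was also the case for 81.0% of protein-coding genes. The genes closest to a GABPα peak were Cd3g and Cd3d, and the farthest were Cd247 and Cd28. The bound sites around the receptor genes lay at the starts of neighbouring genes with other functions.

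The sequences at the neighbours' peaks and at the receptor genes are shown first, because the comparison turns on them. All genome sequence is from the reference assembly GRCm38, the build also called mm10, and not from the reads. The motif used was CCGGAAG, the start of the known GABP site, sought as an exact match on both strands (CTTCCGG on the other strand). It contains the shorter CGGAAG, which in turn contains the ETS core GGAA, so the counts of these motifs overlap. The following 27-base stretches, read on the strand of the motif with the match in capitals, hold copies of CCGGAAG inside the GABPα peaks nearest to the receptor genes.

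Ube4a start, chr9:44965607-44965633, plus strand: ttaccccgcgCCGGAAGtagggcggtg
Ube4a start, second copy, chr9:44965705-44965731, plus strand: ggggggcgggCCGGAAGtggctttggg
Mpzl3 start, chr9:45055163-45055189, minus strand: gcaggtggtgCCGGAAGtgacgtcatg
Eif3i and Tmem234 starts, chr4:129600679-129600705, plus strand: cctctcgctcCCGGAAGtagaagggcc
Usp5 intron, chr6:124829089-124829115, minus strand: actaccactcCCGGAAGctacagctct
Actr1b intron, chr1:36710096-36710122, plus strand: ttgaagctttCCGGAAGaacagccagg
Rabep2 start, chr7:126429064-126429090, plus strand: ccgagcggacCCGGAAGcgggagtgcc

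Copies of CCGGAAG were also present at 3 of the receptor genes within 1000 bp of a transcript start, where no peak was listed. They are given in the same way, and the 2 closest to a start come first.

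Zap70, chr1:36761877-36761903, minus strand: cagggcccagCCGGAAGgcctggtgtc
Cd3d, chr9:44985708-44985734, plus strand: ggacatgagaCCGGAAGgccttctggg
Cd3d, second copy, chr9:44986645-44986671, minus strand: cagcaaaatcCCGGAAGttgttatgat
Cd3g, chr9:44973982-44974008, plus strand: tgtgattcctCCGGAAGctttagacat
Zap70, second copy, chr1:36778152-36778178, plus strand: ggctgaggccCCGGAAGgagcagggca

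The promoters of the receptor genes held the GGAA core in other contexts. The 250 bases before the RefSeq transcript start (GRCm38.p6) are printed for Zap70, which had the most GGAA cores among the 9 genes, for the distal and the proximal promoter of Lck, and for Cd3d, which had the lowest CpG ratio. Each reads 5′ to 3′ on the strand of the gene, and capitals mark GGAA or its reverse complement TTCC.

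Zap70, chr1:36761548-36761797, plus strand: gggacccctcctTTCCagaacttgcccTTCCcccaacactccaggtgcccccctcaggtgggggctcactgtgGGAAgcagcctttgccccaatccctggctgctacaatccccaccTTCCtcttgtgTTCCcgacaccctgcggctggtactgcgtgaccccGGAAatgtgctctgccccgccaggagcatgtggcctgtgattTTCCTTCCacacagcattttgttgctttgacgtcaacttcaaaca
Lck distal promoter, chr4:129573642-129573891, minus strand: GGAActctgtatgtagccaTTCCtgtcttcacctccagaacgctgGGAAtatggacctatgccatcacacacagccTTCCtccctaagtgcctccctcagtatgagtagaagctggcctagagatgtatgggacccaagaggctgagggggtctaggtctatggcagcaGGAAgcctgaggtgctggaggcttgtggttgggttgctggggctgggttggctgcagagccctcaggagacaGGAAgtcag
Lck proximal promoter, chr4:129558373-129558622, minus strand: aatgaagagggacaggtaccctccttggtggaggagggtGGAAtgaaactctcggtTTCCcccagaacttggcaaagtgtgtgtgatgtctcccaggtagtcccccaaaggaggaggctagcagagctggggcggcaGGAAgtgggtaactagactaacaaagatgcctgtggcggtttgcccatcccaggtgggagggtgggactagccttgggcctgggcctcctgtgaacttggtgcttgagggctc
Cd3d, chr9:44981536-44981785, plus strand: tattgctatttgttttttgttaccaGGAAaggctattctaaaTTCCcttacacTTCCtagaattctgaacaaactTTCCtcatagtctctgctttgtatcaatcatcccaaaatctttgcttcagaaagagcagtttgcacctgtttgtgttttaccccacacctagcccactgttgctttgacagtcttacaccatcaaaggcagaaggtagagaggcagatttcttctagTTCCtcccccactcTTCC

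These stretches hold 8 GGAA cores for Zap70, 6 for distal Lck, 3 for proximal Lck and 6 for Cd3d, and no copy of CGGAAG. For comparison, the whole GABPα peak nearest to Zap70, at the start of a neighbouring gene, is printed on the plus strand with CCGGAAG in capitals, followed by the peak on the side of Cd4 that is nearest to one of its transcripts.

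Actr1b peak, chr1:36710025-36710129, plus strand: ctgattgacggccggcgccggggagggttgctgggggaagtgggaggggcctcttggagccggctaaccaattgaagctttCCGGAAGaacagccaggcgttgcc
Usp5 peak, chr6:124828987-124829177, plus strand: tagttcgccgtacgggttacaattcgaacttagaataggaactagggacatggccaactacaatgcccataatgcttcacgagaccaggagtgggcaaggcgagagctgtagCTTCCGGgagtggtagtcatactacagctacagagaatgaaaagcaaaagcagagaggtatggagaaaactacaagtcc

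The Actr1b peak is 105 bp wide with 1 copy of CCGGAAG. The Usp5 peak is 191 bp wide and also has 1 copy, here on the minus strand, so that it appears as CTTCCGG.

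Cd3e, Cd3d and Cd3g, which encode the ε, δ and γ chains of CD3, lie side by side on chromosome 9 (Cd3g at chr9:44969572-44980431 on the minus strand, Cd3d at chr9:44981786-44987339 on the plus strand and Cd3e at chr9:44998740-45009627 on the minus strand). They shared a single stretch of 89.2 kb without a peak, bounded on both sides by a GABPα peak. On the side of Cd3g the peak covered the start of Ube4a, which encodes a ubiquitin ligase, at chr9:44965438-44965814. It was 377 bp wide, at the 96.7th percentile of the listed widths, and held 2 copies of CCGGAAG, both shown above. Of its bases, 128 lie in a UTR exon of Ube4a and 214 outside any transcript.

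The Ube4a peak was the nearest peak for all 3 CD3 genes. It lay 7249 bp from Cd3g, counted from the start of a retained-intron transcript, and 14617 bp from the coding start of Cd3g. Its distance was 15972 bp for Cd3d and 36573 bp for Cd3e. These distances put Cd3g at the 21.6th percentile of all protein-coding genes, Cd3d at the 27.4th and Cd3e at the 39.2nd, where a low percentile means a near peak. The median over all protein-coding genes was 62501 bp, so the 3 CD3 genes were nearer to a peak than most genes. The peak on the other side, at chr9:45055061-45055495, covered the start of Mpzl3, a gene for a cell adhesion protein, and lay 45434 bp upstream of Cd3e. It was 435 bp wide, the widest of the peaks nearest to one of the 9 genes or within 50 kb of it, with 2 copies of CCGGAAG and 14 GGAA cores.

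Cd247, which encodes the ζ chain, spans chr1:165788681-165877277 on the plus strand and carried no peak over its 88597 bp. Its nearest peak lay 138565 bp downstream of a non-coding transcript start inside the gene, at chr1:166003220-166003423, in an intron of the non-coding gene Gm26665 and 542 bp from a start of Pou2f1, which encodes the transcription factor Oct-1. That peak was 204 bp wide and held neither CCGGAAG nor CGGAAG. From the coding start of Cd247 the nearest peak was 146038 bp away, on the upstream side. Cd247 stood at the 69.0th percentile of distance, and was thus among the 4 genes with no peak within 50 kb.

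Cd4, the coreceptor for MHC class II, lies at chr6:124864692-124888221 on the minus strand between GABPα peaks on either side, in a stretch of 102 kb without a peak. Downstream, the 191-bp peak printed above lay at chr6:124828987-124829177 in an intron of Usp5, a deubiquitinase gene. It was 92 bp from a start of Usp5, 370 bp from the start of Cdca3, a cell-division gene, and 41095 bp from a non-coding start of Cd4. Upstream, a 342-bp peak covered the start of Mlf2 at chr6:124931176-124931517, 42955 bp from the coding start of Cd4. The Mlf2 peak held CGGAAG 1 time but no CCGGAAG. Both distances were below the median of all protein-coding genes, and Cd4 stood at the 41.6th percentile.

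Lck, the SRC-family kinase that starts receptor signalling, has a distal promoter and a proximal promoter. It lies at chr4:129548344-129573641 on the minus strand. The nearest peak was 26889 bp upstream of the distal start and 42139 bp upstream of the coding start at 129558391 at the proximal promoter. At chr4:129600530-129600816, this 287-bp peak covered the facing starts of Eif3i, a translation initiation factor subunit, and Tmem234, a predicted membrane protein, and held 2 copies of CCGGAAG. Lck stood at the 34.3rd percentile of distance. Zap70, the kinase that docks on the phosphorylated chains, lies at chr1:36761798-36782818 on the plus strand. Its nearest peak was the 105-bp interval at chr1:36710025-36710129, in an intron of Actr1b, a dynactin subunit gene, 17 bp from a start of Actr1b and 20 bp from the start of 4933424G06Rik. That peak was 51669 bp upstream of Zap70, just outside 50 kb, while the Mpzl3 peak at 45434 bp from Cd3e was the farthest inside it.

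Lat, the adaptor that Zap70 phosphorylates, lies at chr7:126363824-126369570 on the minus strand, and its nearest peak was 59425 bp upstream. That 130-bp peak, at chr7:126428995-126429124, covered a start of Rabep2, a gene for an endosomal trafficking protein, and held 1 copy of CCGGAAG. Cd28, the costimulatory receptor, lies at chr1:60716800-60773359 on the plus strand. It was the farthest from any peak, at 149897 bp from its annotated 5′ end and 179455 bp from its coding start. The nearest interval, 118 bp wide at chr1:60566786-60566903, lay in an intron of Raph1, 7 bp from a start of that gene, which encodes an actin-regulating protein. Lat was at the 49.0th percentile of distance and Cd28 at the 71.0th.

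**Figure D1:**
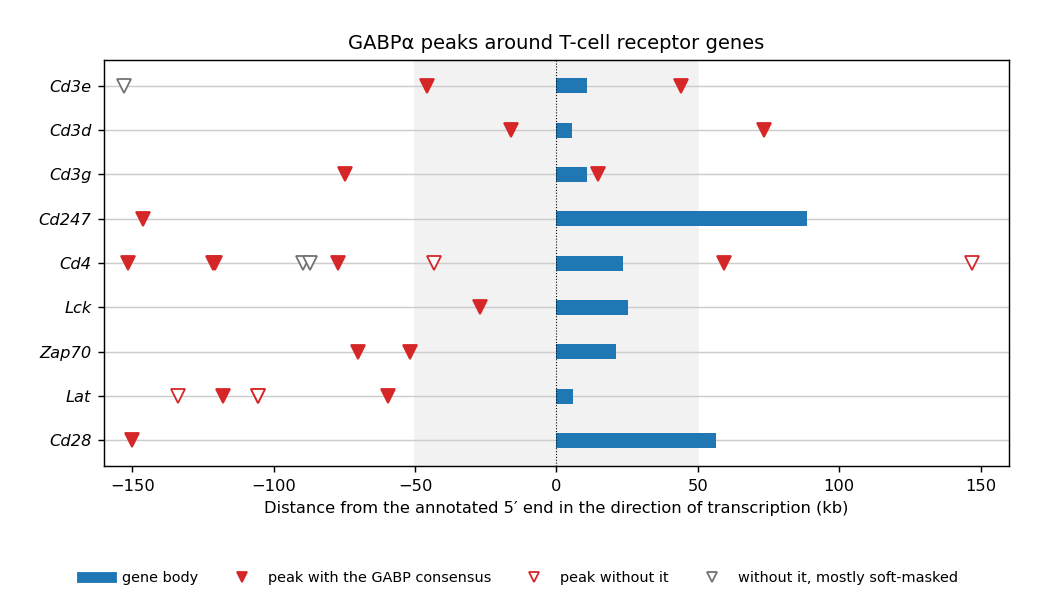
GABPα peaks within 160 kb of the annotated 5′ end of each of the 9 genes. The horizontal axis is the distance in kb in the direction of transcription, blue bars are gene bodies, triangles are peaks (filled where they hold CCGGAAG, open where they do not, grey where at least 50% of bases are soft-masked), and the shaded band marks 50 kb to either side; no triangle lies on a blue bar. The nearest peak of Cd247, measured from an internal start, lies outside the range drawn, and the Usp5 peak, within 50 kb of an internal start of Cd4, is drawn at its longer distance from the 5′ end.

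Taking these loci together, 5 of the 9 genes had a peak within 50 kb of a transcript start (Cd3e, Cd3d, Cd3g, Cd4 and Lck), beside 45.5% of all protein-coding genes. The 3 CD3 genes share peaks and are not independent of each other. The median distance to the nearest peak was 41095 bp. The map of peaks by distance shows that every gene body is free of peaks. The 9 distinct peaks that were nearest to a receptor gene or within 50 kb of it were 105 to 435 bp wide. Each of the 9 was no more than 1000 bp from where a transcript of another protein-coding gene begins, as were 51.0% of all listed peaks, and 5 of the 9 covered such a start. CCGGAAG was found in 7 of the 9 peaks, beside 31.7% of all listed peaks. That share also covers peaks away from coding starts, so it comes from an unlike set. CGGAAG was in 8 of the 9, and no share over all listed peaks is given for it. None of the 9 was mostly repeat sequence, meaning that at least 50% of its bases are soft-masked in the reference (the highest share was 20%, in the Actr1b peak), whereas 39.8% of all listed peaks were.

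The peak-free stretch around each gene differed widely. It was 89.2 kb at the CD3 genes, 102 kb at Cd4, 228 kb at Lat, 264 kb at Lck, 361 kb at Cd247, 719.9 kb at Zap70 and 930.0 kb at Cd28. The median over 19510 protein-coding genes that lie between peaks was 500.6 kb, so 7 of the 9 genes sat in stretches shorter than that median and Zap70 and Cd28 in longer ones. Counting from the gene body in place of the starts, the distance was 3758 bp for Cd3g, 32926 bp for Cd3e, 35515 bp for Cd4 and 125943 bp for Cd247, and it stayed as above for the other 5 genes.

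The promoter sequences of the 9 genes had few CpG dinucleotides. The CpG observed/expected ratio compares the number of CpGs in a window with the number its C and G content would give by chance, and the window runs here from 250 bp before to 50 bp after the annotated 5′ end. The ratio was 0.0774 for Cd3d, 0.183 for Cd3g, 0.210 for Cd247, 0.289 for Lck, 0.310 for Lat, 0.320 for Cd28, 0.341 for Zap70, 0.361 for Cd3e and 0.501 for Cd4. For Cd28 the annotated 5′ end is the start of a non-coding transcript, and the window at its coding start had 0.236. Cd3d stood at percentile 9.21 of all protein-coding genes and Cd4, the highest of the 9, at the 48.3rd. Thus all 9 ratios lay in the lower 48.3% of protein-coding genes. The median of the 9 genes was 0.310, beside 0.525 over all protein-coding genes, 0.805 over those with a peak within 1000 bp of a start and 0.419 over those without.

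GC content told the genes apart less. It ran from 42.3% for Cd3d to 65.7% for Lat, with a median of 54.0% over the 9 genes, beside 55.0% over all protein-coding genes, 59.3% over those with a peak and 53.7% over those without. Among all 40 starts of the 9 genes, 37 had a CpG ratio no higher than that of Cd4, and 3 starts of retained-intron transcripts had a higher one. These were an internal start of Zap70 at chr1:36770992, with 0.919, and internal starts of Lck at chr4:129556231 and chr4:129556459, with 0.715 and 0.675. No peak lay within 1000 bp of these 3 starts either. Most neighbours whose starts carried the peaks had higher ratios. Of 12 protein-coding neighbours, 11 had a ratio of 0.722 (Usp5) or more, above every receptor gene. The remaining neighbour, Actr1b, had 0.188 at its annotated 5′ end, but its peak lay at an internal start beside 4933424G06Rik, which had 0.852. These neighbours were taken because they have a peak near a start. Of all 3880 protein-coding genes with such a peak, 3374 had a ratio above that of Cd4, as did 11342 of all 21938. The contrast with the receptor genes is therefore no separate result.

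**Figure D2:**
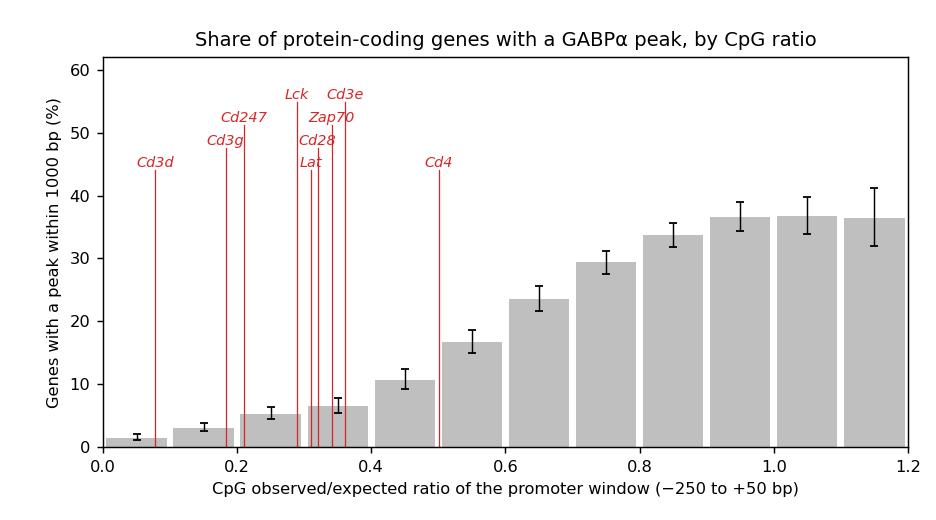
Share of protein-coding genes with a GABPα peak within 1000 bp of a transcript start (vertical axis, percent) in classes of 0.1 of the CpG observed/expected ratio of the promoter window (horizontal axis). Bars are shares with Wilson 95% intervals, and red lines mark the ratios of the 9 receptor genes, which reach from the lowest class, with a share of 1.52%, to the class starting at 0.5, with 16.7%; the share is 36.8% in the class starting at 1.0.

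Few protein-coding genes in this range of CpG ratios had a GABPα peak. Of the 10596 genes with a ratio no higher than that of Cd4, 506 had a peak within 1000 bp of a start (4.78%, Wilson 95% interval 4.39 to 5.20%), and of the 11342 genes above it 3374 did (29.7%). This split was set at the highest of the 9 genes after their values were seen. Among the genes in the lower class that also lacked CGGAAG in the window, as all 9 receptor genes did, 387 of 9881 had a peak (3.92%). The plot of the share with a peak by CpG ratio shows it rising from 1.52% in the lowest class. CGGAAG itself contains a CpG, so the ratio and the motif count are not independent measures.

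The GABP motif was missing from the promoter window of all 9 genes. CCGGAAG was in 0 of the 9 windows, beside 10.8% of the windows of all protein-coding genes. CGGAAG was also in 0 of 9, beside 19.9%. Both shares lie inside the Wilson interval for 0 of 9, which ends at 29.9%. These motif counts alone therefore do not set the 9 genes apart from the genome. With 500 bp to either side of the annotated 5′ end, 1 of the 9 genes had CCGGAAG, beside 19.2% of all protein-coding genes. The GGAA core alone was in all 9, as in 96.1% of all windows. For Cd28 this holds only at the annotated 5′ end, which is the start of a non-coding transcript. The window at its coding start, chr1:60746358, held no GGAA. Over protein-coding genes with a peak, 41.7% of the windows held CCGGAAG and 59.3% held CGGAAG, and over those without a peak 4.13% and 11.4% did. Exact matching shows only that these letters are not in these windows.

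GGAA was, by contrast, frequent at some of the receptor genes. Zap70 had 10 cores in the window, at the 99.6th percentile of protein-coding genes, Lck had 7, Cd3d and Cd3e had 6 each, Lat and Cd28 had 5 each, Cd4 had 3, and Cd3g and Cd247 had 2 each. The median was 5 over the 9 genes and 3 over all protein-coding genes. At most of these genes a variant of the GABP motif was present. AGGAAG, with A in place of the C before the core, was in the windows of 7 genes (Cd3e, Cd3d, Cd247, Cd4, Lck, Zap70 and Lat), beside 34.6% of all windows. CAGGAAG was in 5 of them (Cd3e, Cd247, Cd4, Lck and Lat), beside 12.3%. In the Lck promoters printed above, it stands in the distal stretch as gcaGGAAg and acaGGAAg and in the proximal stretch as gcaGGAAg. CCGGAA, which is CCGGAAG without its last base, was in the Zap70 window only, beside 17.5% of all windows.

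The share of genes with a peak differed between these cores across the genome. Of all protein-coding genes with CCGGAAG in the window 68.5% had a peak within 1000 bp of a start, and with CGGAAG 52.7%. With CAGGAAG 21.1% had one, and with AGGAAG 1440 of 7596 (19.0%). Over all protein-coding genes the share was 17.7%, near the shares of the variants with A before the core. For the 6106 genes with AGGAAG and without CGGAAG, which is the combination of those 7 receptor genes, the share was 9.73% (Wilson 95% interval 9.01 to 10.5%). Among all genes without CGGAAG, the share was 3.92% where the CpG ratio was no higher than that of Cd4. It was 15.5% where the ratio was higher. These variant cores were chosen after the promoter sequences had been seen.

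Zap70 and Cd3d nevertheless had a copy of CCGGAAG close to a coding transcript start. The Zap70 copy, at chr1:36761887-36761893 on the minus strand, lies 89 bp downstream of the annotated 5′ end in the 5′ UTR of the transcript that begins there, just beyond the promoter window. The Cd3d copy, at chr9:44985718-44985724 on the plus strand, lies 99 bp before an internal coding start at chr9:44985823, within the coding sequence of the longer Cd3d transcript. Neither was in a peak. The internal Cd3d start is not the annotated 5′ end of the gene, so its window, with a CpG ratio of 0.195, was not among the 9 windows counted above. Over all starts of the 9 genes, Cd3d was the only gene with CCGGAAG in a window.

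Across the genome, most copies of CCGGAAG in such places were in a peak, but not where CpGs were few. Of 3255 copies within 100 bp of a coding transcript start, 2052 were in a GABPα peak (63.0%). Of the 497 copies at starts with a CpG ratio no higher than that of Cd4, where those of Zap70 and Cd3d fall, 78 were (15.7%, Wilson 95% interval 12.8 to 19.2%), and of the 2758 copies at other starts 1974 were (71.6%). The base after the motif also varied. Both the Zap70 and the Cd3d copy are followed by G, as the stretches printed above show. Of the 10 copies in the peaks around the receptor genes, 7 are followed by T. Among the 3255 copies within 100 bp of a coding start, T followed 1272 and G 556. Among the 2052 of these in a peak, T followed 991 and G 227. The copies at the receptor genes are few, some of the 10 share a peak, and a difference between them was not tested. Of the 5 copies within 1000 bp of a start of the 9 genes, 3 are followed by G and 1 by T. The copy followed by T, the second Cd3d copy, was not in a peak either. Of all copies within 100 bp of a coding start, 77.9% were in a peak when followed by T, 61.4% when followed by C, 52.0% when followed by A and 40.8% when followed by G. At starts with a low CpG ratio, 42 of 162 copies followed by T (25.9%) and 5 of 121 followed by G (4.13%, Wilson 95% interval 1.78 to 9.31%) were in a peak. The next base was examined after the sequences had been seen.

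**Figure D3:**
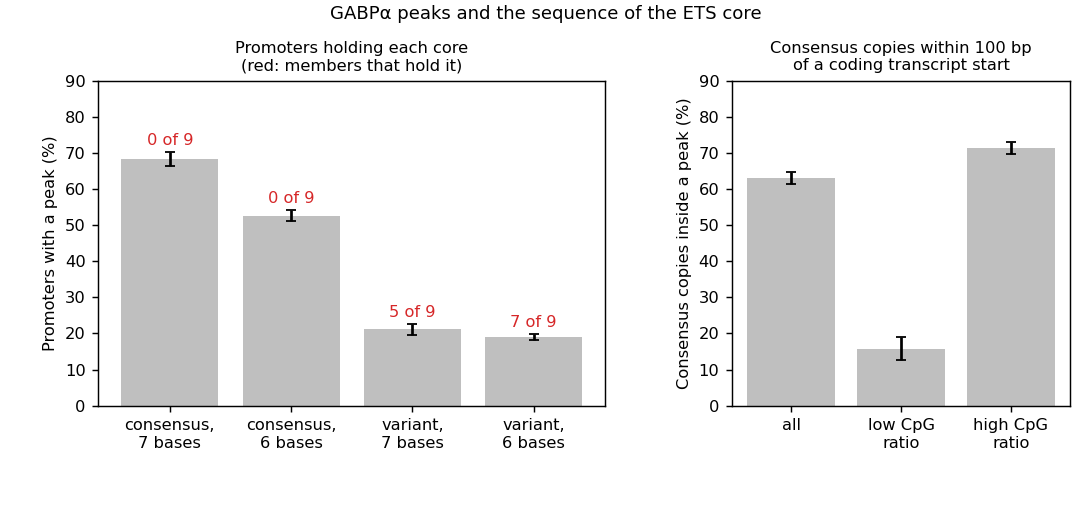
Left, share of protein-coding genes with a GABPα peak within 1000 bp of a start among those whose promoter window holds each core (consensus of 7 and of 6 bases, and the variants with A before the core), with the number of the 9 receptor genes that hold it in red. Right, share of consensus copies within 100 bp of a coding transcript start that lie in a peak, for all copies and for starts with a CpG ratio at or below and above that of Cd4. Error bars are Wilson 95% intervals. The share is 68.5% for the consensus of 7 bases, held by 0 of the 9 genes. It is 21.1% for the variant of 7 bases, held by 5, beside 17.7% over all protein-coding genes.

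In all, the bodies of the 9 genes and 1000 bp to either side held 16 copies of CCGGAAG, and none was in a peak. Over all protein-coding genes the same kind of region held 39803 copies, of which 6.62% were in a peak. The 16 copies were at Cd247 (7), Cd3d, Cd4, Lck and Zap70 (2 each) and Cd3g (1), and Cd3e, Lat and Cd28 had none. Introns held 11, coding sequence 3 and UTR exons 2. Within 1000 bp of a start there were 5, at Cd3d, Cd3g and Zap70, and none of these was in a peak, beside 27.1% of the 9501 copies in such places over all protein-coding genes. The nearer Lck copy, in an intron of the distal transcript, was 1211 bp from the distal start. Lat was farthest from any copy, at 46514 bp. Within 50 kb of the 9 genes there were 55 copies, of which 7 (12.7%) were in a peak, beside 3.56% of the 78506 copies on the 21 chromosomes. Each of the 7 was within 1000 bp of a neighbour's start, as were the peaks that held them.

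Reads of 36 bp can be placed at nearly all of these positions. In the 1000 bp to either side of the 40 starts, a median of 99.8% of the 36-base sequences occur only 1 time in the 21 chromosomes. The lowest share was 70.5%, at the non-coding internal start of Cd247, and the lowest around any of the 16 copies was 93.6%, at an intronic copy of Cd4.

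Of the other genes of the pathway, a list of 78 that covers receptor chains to negative regulators, 17 had a peak within 1000 bp of a start (21.8%, Wilson 95% interval 14.1 to 32.2%), beside 17.7% of all protein-coding genes. By role, peaks were found at 0 of 3 receptor chain genes, 0 of 2 coreceptor genes, 0 of 7 accessory surface protein genes and 0 of 6 kinase genes. Adaptors had a peak in 3 of 13, exchange factors and cytoskeletal effectors in 4 of 12, later steps in 5 of 12, costimulatory and inhibitory receptors in 1 of 9 and negative regulators in 2 of 12. The list ends with 2 genes for a chaperone and a lysosomal protein, and both had a peak. No difference between these roles was tested.

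Among the adaptors, peaks lay at Grb2, which links receptors to RAS activation, at Lax1, a membrane adaptor related to LAT in function, and at Nck1, which links to actin. The effectors with a peak were Was, Arhgef1, Dock2 and Coro1a, which act on actin or on the small GTPases that control it. Those of the later steps were Bcl10 and Malt1, which act together towards NF-κB, Nfatc2 and Nfatc3, the NFAT transcription factors, and Ppp3r1, the regulatory subunit of calcineurin. The others were Tnfrsf9, which encodes the costimulatory receptor 4-1BB, Ptpn2, a phosphatase, Cblb, a ubiquitin ligase, Unc119, an LCK-binding chaperone, and Laptm5. Where a gene had more than 1 peak within 1000 bp (Grb2, Arhgef1, Coro1a and Ptpn2), the peak nearest to a start is described, and at Grb2 and Coro1a, where both peaks covered a start, the one with the lower coordinates. These nearest peaks, 1 for each of the 17 genes, were 111 bp (Was) to 426 bp (Tnfrsf9) wide with a median of 149 bp. The nearest peak covered a start at 13 of the 17 genes, and was 105 bp away at Nfatc3, 486 bp at Nfatc2, 551 bp at Dock2 and 564 bp at Unc119. Some of these starts were internal and more than 1000 bp from the annotated 5′ end. The start lay 11292 bp from that end at Nfatc2, 9063 bp at Grb2, 5315 bp at Coro1a, 3184 bp at Unc119 and 1458 bp at Bcl10.

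The Tnfrsf9 peak, the widest of these 17 nearest peaks and the only one among them that also lay within 1000 bp of a start of another protein-coding gene, Park7, held 2 copies of CCGGAAG. Of the other 16 nearest peaks, those at Bcl10, Nfatc2 and Unc119 held 1 copy each. CCGGAAG was thus in 4 of the 17 nearest peaks, beside 31.7% of all listed peaks. CGGAAG was in 10 of the 17, and no share over all listed peaks is given for it. The median CpG ratio of the promoter windows was 0.676 over the 17 genes and 0.359 over the other 61, whose nearest peak was 2303 to 1167407 bp away with a median of 92936 bp. The windows lie at the annotated 5′ end, so at genes such as Grb2 and Nfatc2 the ratio does not describe the internal start beside the described peak. Of the 47 listed genes with a ratio no higher than that of Cd4, 6 had a peak (12.8%), and of the 31 others 11 did (35.5%). The 6 were Dock2 (0.227), Was (0.235), Lax1 (0.263), Laptm5 (0.278), Cblb (0.313) and Nfatc3 (0.421), so some pathway genes with ratios in the range of the 9 receptor genes did have a peak.

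The count was also 0 in lists of cytokine receptor and T-cell lineage factor genes. Of 8 genes for receptors of the common γ chain family of cytokines, 0 had a peak within 1000 bp of a start (Wilson 95% interval 0.0 to 32.4%). Of 16 genes for T-cell lineage transcription factors, 0 did (0.0 to 19.4%). Both intervals include the 17.7% of all protein-coding genes, so these counts alone do not set the lists apart from the genome. Of 78 genes for mitochondrial ribosomal proteins, chosen as genes that nearly every cell uses, 48 had a peak (61.5%, Wilson 95% interval 50.4 to 71.6%). The interval of the 9 receptor genes, which ends at 29.9%, does not reach this share but does include that of the wider pathway list. All lists were chosen with earlier results of these data known. The paper also names mitochondrial ribosomal protein genes among its putative direct targets from the same ChIP-seq. The contrast with that list is therefore a description and not a test. These intervals cover counting error only.

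**Figure D4:**
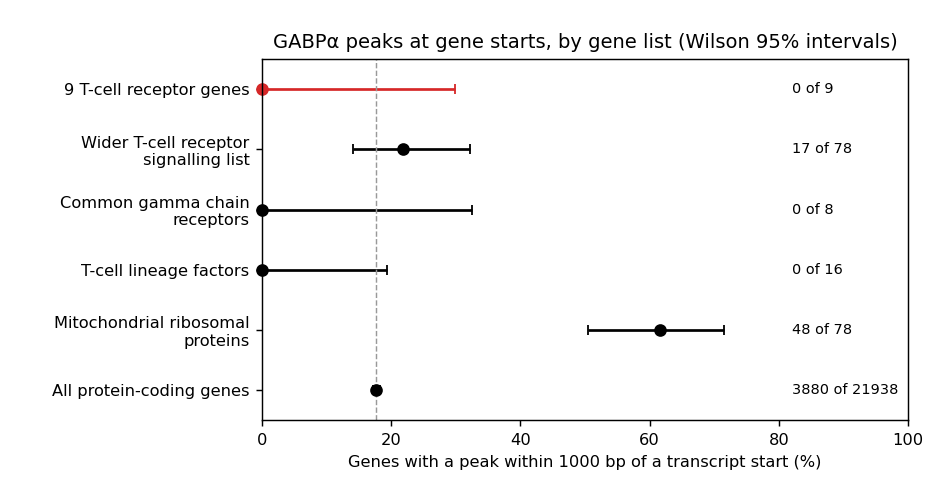
Share of genes with a GABPα peak within 1000 bp of a transcript start (horizontal axis, percent) in 6 lists, with Wilson 95% intervals and the counts at the right. The dashed line is the share over all protein-coding genes, 17.7%; the 9 receptor genes, the common γ chain receptors and the lineage factors sit at 0, and the mitochondrial ribosomal proteins at 61.5%.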

How the data were processed

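Before deposit, the authors ran trimmomatic on single-end reads of 36 bp, placed them on the mm10 genome by bowtie, and had MACS2 find intervals enriched over the input DNA past a q value limit. The deposited list holds chromosome, start and end of 6782 intervals (104 to 5151 bp, median 157 bp), an empty score column and a strand column that follows the nearest gene. Starts were taken as 0-based and are printed 1-based. The expression arrays and the input reads were not analysed here. Peaks were placed on GENCODE M21 transcripts and on the sequence of GRCm38.p6 (mm10) with Python 3.11.15, pandas 2.3.3 and pysam 0.24.0, and a distance runs from a transcript start to the nearest edge of a peak. Promoter windows run from 250 bp before to 50 bp after the annotated 5′ end. Motifs are exact matches on both strands. Percentiles are among the 21938 protein-coding genes. Intervals are Wilson intervals at 95% from scipy 1.17.1. Promoter sequences are from RefSeq (7 of the 9 genes matched by symbol). Distances and motif counts were tested on simulated data, in which 2000 of 2000 distances and 2000 of 2000 motif windows matched. The 9 genes and the gene lists were chosen with earlier results of these data known. Named were all 9 genes, every gene of the pathway list with a peak within 1000 bp, the genes with a start within 1000 bp of a peak within 50 kb of one of the 9, and the genes nearest to the other nearest peaks; genes that share a listed gene's peak or lie beside a nearest peak (Park7, Pou2f1, 4933424G06Rik) were added after their values were seen. Alternatives were other distances, peak subsets, starts, windows and motifs.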

Additional observations from a re-analysis of the deposited data

How the results depend on the processing

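The count of 9 receptor genes with a peak at a start stayed 0 under all 9 alternatives tried for it: 500, 2000 or 5000 bp, protein-coding transcripts or the 5′ end only, at least 50% of the peak in the window, merged peaks, no mostly soft-masked peaks, and only the 3407 peaks of at least the median width. The share of all protein-coding genes was 17.2% at 500 bp, 19.9% at 5000 bp, 16.4% with the 5′ end only and 14.0% with the wide peaks, beside 17.7%. Of the pathway list, 13 genes had a peak with the 5′ end only, 15 at 500 bp and 23 at 5000 bp, beside 17. With the wide peaks, 7 genes of the pathway list had a peak, and the nearest peak moved to 70133 bp for Zap70, 105519 bp for Lat and 618540 bp for Cd28. At 25 kb, 2 of the 9 genes had a peak nearby (1 peak), and at 100 kb 7 did (11 peaks), beside 5 genes and 5 peaks at 50 kb. The share of all protein-coding genes was not computed at 25 or 100 kb, so these counts have no background to be read against. From the gene body the median distance was 35515 bp. For the motif, 9 of 9 genes had GGAA, 1 had CCGGAAG within 500 bp of the 5′ end and 1 in the window of any start, beside 0, and the share of all genes was 19.9% with CGGAAG, 96.1% with GGAA, 19.2% with 500 bp to either side and 17.4% with every start, beside 10.8%. The median CpG ratio of the 9 genes was 0.275 with 500 bp to either side. The 3 other gene lists, tried under the same 9 alternatives after their values were seen, stayed within 1.5 times their counts. With 1 ChIP library and no height or depth, enrichment below the cutoff of the peak caller cannot be told apart from no binding.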
